A study of Mus musculus with 2 samples.

Results

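The variable segments of the immunoglobulin heavy chain, the Ighv genes, were described in spleen cells of grafted mice. Members were all rows whose gene symbol begins with Ighv, which gave 185 of the 32285 genes of the count tables, under 183 distinct symbols. Single-cell RNA was captured in droplets and sequenced from transcript 5′ ends, which is the end that holds the variable segment. The ALLO library came from wild-type C57BL/6 recipients grafted with skin of C57BL/6-Tg(HLAA2.1)1Enge/J donors, which carry a human HLA transgene. The SYN library came from wild-type C57BL/6 recipients treated alike with skin of wild-type C57BL/6 donors. In both, grafts were placed at weeks 0 and 5, and spleens were taken 4 weeks after the later graft. The spleen cells had been cryopreserved, and dead cells were depleted after thawing. The series title places the study in the question of how Th17 cells bear on antibodies to HLA. Each group held 1 library and the labels do not say how many animals it came from. No difference between ALLO and SYN therefore has a replicate check, no test was possible, and every interval below is an exact 95% interval. At a count of 0, the share that the count allows is instead given as 3 counts of the total. Intervals and limits cover counting error only.

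A developing B cell joins 1 variable, 1 diversity (D) and 1 joining segment into the exon that codes for the antigen-binding end of the heavy chain, so a mature B cell transcribes a single rearranged Ighv segment. Segments of like sequence form families, named by the number before the hyphen, and the large Ighv1 family lies farthest from the D segments. Follicular B cells, which carry the low-affinity IgE receptor Fcer2a (CD23), marginal zone B cells and newly formed transitional B cells are the main B cell stages of the spleen. B1 cells are a further lineage with a restricted repertoire, in which Ighv11 and Ighv12 segments are known for binding phosphatidylcholine. Plasma cells secrete antibody and hold far more immunoglobulin RNA per cell than B cells.

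All 185 rows matched the GENCODE M21 annotation of GRCm38 (mm10) by gene identifier. They comprised 113 functional variable genes, 70 pseudogenes and 2 genes annotated as IG_LV_gene. They lie on chromosome 12 between 113572927 and 116010093, a span of 2437 kb, with 183 rows on the minus strand and the 2 IG_LV_gene rows on the plus strand, and with Ighv5-1 nearest to the D segments and Ighv1-86 farthest. In 41 rows no UMI (unique molecule) was counted in any barcode. A further 40 rows had UMIs but were never the assigned segment of a B cell, and 104 segments were used, 98 of them functional variable genes and 6 annotated pseudogenes.

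The antigen-contacting part of the coding exon is shown for 6 segments on which the results turn, as the reference gives it, 5′ to 3′, from the GENCODE M21 transcripts, with 30 bases on either side. They are the most used segment (Ighv1-26), the segments of 3 groups of barcodes described further on (Ighv8-12, Ighv3-6 and Ighv5-9) and the phosphatidylcholine-associated segments (Ighv11-2 and Ighv12-3). Capitals mark the hypervariable stretches, which form the first and second antigen-contacting loops; they were located from the conserved residues that flank them. All lie in exon 2 on the minus strand of chromosome 12 (GRCm38): Ighv1-26 at 114788438 to 114788620, Ighv8-12 at 115648015 to 115648200, Ighv3-6 at 114288220 to 114288402, Ighv5-9 at 113661837 to 113662019, Ighv11-2 at 114048309 to 114048491 and Ighv12-3 at 114366592 to 114366774.
Ighv1-26: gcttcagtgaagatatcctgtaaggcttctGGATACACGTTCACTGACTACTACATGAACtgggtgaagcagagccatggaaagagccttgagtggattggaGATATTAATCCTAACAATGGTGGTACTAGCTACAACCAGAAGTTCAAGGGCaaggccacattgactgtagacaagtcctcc
Ighv8-12: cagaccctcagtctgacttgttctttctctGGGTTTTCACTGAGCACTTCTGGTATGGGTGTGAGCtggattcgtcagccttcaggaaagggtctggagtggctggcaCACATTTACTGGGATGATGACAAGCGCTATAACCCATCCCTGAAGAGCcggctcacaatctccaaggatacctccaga
Ighv3-6: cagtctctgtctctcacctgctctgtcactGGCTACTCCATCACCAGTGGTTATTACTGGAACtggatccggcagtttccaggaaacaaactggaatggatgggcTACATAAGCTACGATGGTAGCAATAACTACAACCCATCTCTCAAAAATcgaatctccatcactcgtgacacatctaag
Ighv5-9: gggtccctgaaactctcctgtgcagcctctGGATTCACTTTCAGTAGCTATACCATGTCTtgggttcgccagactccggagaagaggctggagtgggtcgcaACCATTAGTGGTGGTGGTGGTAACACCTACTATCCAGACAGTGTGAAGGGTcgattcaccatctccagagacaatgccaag
Ighv11-2: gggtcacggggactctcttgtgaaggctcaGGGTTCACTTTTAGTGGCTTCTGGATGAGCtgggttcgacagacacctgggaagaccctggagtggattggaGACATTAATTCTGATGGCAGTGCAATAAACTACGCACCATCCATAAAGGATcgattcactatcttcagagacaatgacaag
Ighv12-3: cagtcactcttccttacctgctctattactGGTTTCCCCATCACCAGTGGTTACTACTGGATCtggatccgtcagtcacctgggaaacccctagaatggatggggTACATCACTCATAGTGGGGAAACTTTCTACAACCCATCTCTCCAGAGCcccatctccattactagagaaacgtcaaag
Over the whole exons Ighv1-26 shared 55.4% of bases with Ighv8-12 and 64.5% with Ighv5-9. Ighv3-6 and Ighv12-3 shared 76.5%, and Ighv5-9 and Ighv11-2 shared 74.3%. Across 85 functional segments with a usable exon the closest other segment shared a median of 95.1% of bases, none was identical to another, and 8 were within 5 bases of another. Those 8 were Ighv11-1 and Ighv11-2, Ighv1-15 and Ighv1-23, Ighv1-20 and Ighv1-37, and Ighv1-62-3 and Ighv1-72, whose counts can be split or lost between the copies.

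Barcodes with at least 1000 UMIs were kept, which left 9926 of 11185 in ALLO and 11267 of 17777 in SYN, with medians of 3304.5 and 3138 UMIs. The lists of all barcodes shared 264 barcodes between the libraries. A B cell had at least 2 UMIs of Cd79a and Cd79b, the signalling chains of the B cell receptor, no UMI of the T cell receptor chains Cd3d, Cd3e and Cd3g, and fewer than 3 UMIs of Jchain, which joins secreted antibody. This gave 6945 ALLO and 6788 SYN B cells. A B cell was assigned to its leading segment if that had 3 or more UMIs and no fewer than 2 times those of the runner-up. This assigned 5284 ALLO B cells (76.1%, 75.1 to 77.1) and 5128 SYN B cells (75.5%, 74.5 to 76.6).

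Most B cells thus reported 1 dominant segment, from few molecules. The assigned segment had a median of 7 UMIs in ALLO and 8 in SYN and made up 93.1% and 93.9% of all Ighv UMIs of the assigned B cells. Of the unassigned B cells, 275 ALLO and 250 SYN had no Ighv UMI, 1074 and 1101 had only 1 or 2 UMIs of the leading segment, and 312 and 309 had a close runner-up, which in 120 and 118 of them belonged to the same family. Among the assigned B cells, a runner-up with at least 3 UMIs was present in 313 ALLO and 279 SYN cells. T cells were barcodes with at least 2 UMIs of the Cd3 genes and none of Cd79a, Cd79b or Jchain. T barcodes that held such B cell RNA were thus left out, which can make the Ighv background too low. In T cells, which should not transcribe rearranged Ighv genes, 9.68% of 1519 ALLO and 7.61% of 2062 SYN barcodes held an Ighv UMI. Among B cells it was 96.0% and 96.3%. Median depths were 4224 and 4133 UMIs in T cells and 3173 and 2999 in B cells. Only 5 ALLO and 1 SYN T barcodes reached the limits for a segment, 0.329% and 0.0485% of T cells.

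Before the shares are given, 3 groups of barcodes must be described, since several results rest on them. A light chain segment was assigned to each barcode by the same limits, and pairs of heavy and light segments with at least 20 barcodes and at least 2 times the number expected from the separate shares were singled out, a rule chosen after the values were seen. In ALLO, Ighv8-12 was paired with Igkv12-44 in 24 barcodes where 2.92 were expected, and 20 of them held at least 3 Jchain UMIs. In SYN, Ighv3-6 was paired with Igkv10-96 in 40 barcodes where 14.5 were expected, 30 of them with at least 3 Jchain UMIs. Also in SYN, Ighv5-9 was paired with Igkv3-4 in 25 barcodes where 0.968 were expected, none of them with 3 Jchain UMIs. This pair was frequent in ALLO too, below the limit of 20 barcodes. Igkv3-4 was the light segment in 5 of 21 ALLO Ighv5-9 B cells with an assigned light segment (23.8%, 8.22 to 47.2). Over all assigned ALLO B cells it was 2.37%. The 4 ALLO and 10 SYN barcodes of the pairs with less Jchain are not part of these groups.

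Outside the immunoglobulin genes, the barcodes within each group differed by little more than counting noise. Every barcode was thinned to 1000 UMIs, and the spread of its other genes was set against counting noise with an index of dispersion, which is 1 when barcodes differ by sampling alone. The index was 1.06 for Ighv8-12 with Igkv12-44, 1.08 for Ighv3-6 with Igkv10-96 and 1.07 for Ighv5-9 with Igkv3-4. Other pairs with at least 8 barcodes had indices between 1.16 and 3.50 in ALLO (54 pairs) and between 1.19 and 3.44 in SYN (46 pairs). Assigned plasma cells outside the groups had 3.16 in ALLO (18 barcodes) and 2.66 in SYN (21 barcodes). The SYN Ighv3-6 group held 1 barcode of 31186 UMIs, and its other 29 held between 1201 and 3789. The SYN Ighv5-9 group held 1 barcode of 6082 UMIs, and its other 24 held between 1243 and 2479. The ALLO Ighv8-12 group ranged from 1207 to 5635 UMIs. At least 1 UMI of a Cd3 gene was present in 13 of the 20, 15 of the 30 and 2 of the 25 barcodes. What made the barcodes of a group alike was not tested. Results that rest on a group are given with all barcodes and with each group counted as its deepest barcode, which dropped 19 barcodes in ALLO and 53 in SYN.

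**Figure D1:**
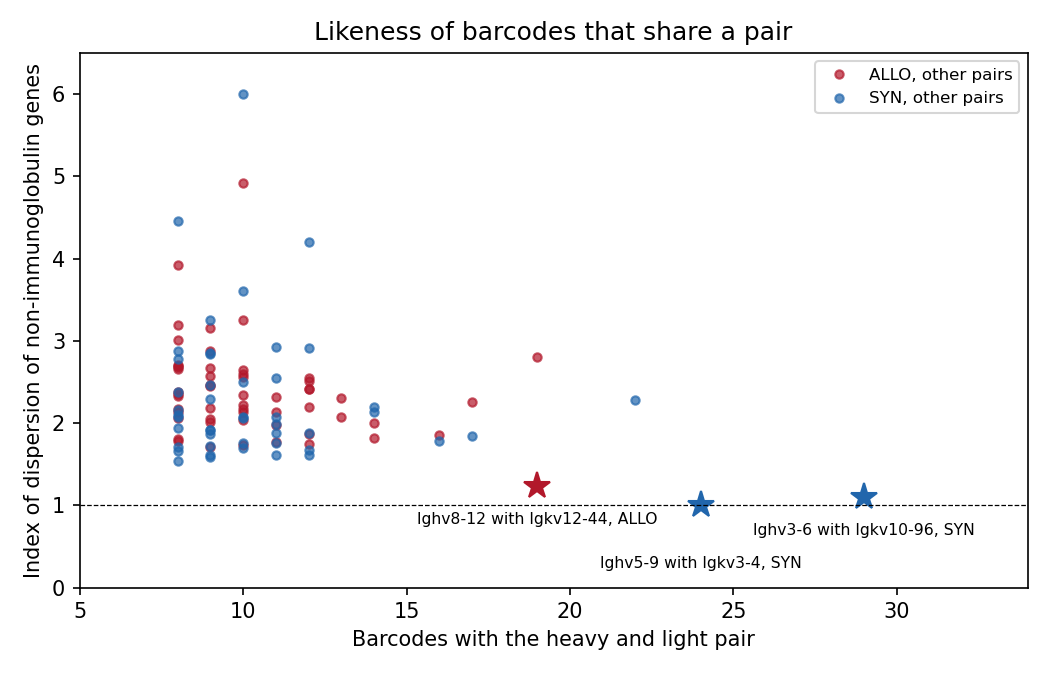
Index of dispersion of non-immunoglobulin genes (vertical axis, UMIs not thinned, 1 means sampling noise) against the number of barcodes that share a heavy and light segment pair (horizontal axis). Circles are the other pairs with at least 8 barcodes, and stars are the 3 groups without their deepest barcode, at 1.23 (Ighv8-12, ALLO), 1.10 (Ighv3-6, SYN) and 1.00 (Ighv5-9, SYN), below every circle of their library.

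The B cells of both libraries drew on a broad set of segments. Ighv1 led with 58.0% of assigned ALLO B cells (56.7 to 59.4) and 59.8% of SYN B cells (58.5 to 61.2), spread over 53 used segments. Ighv5 followed with 7.38% and 7.94%, and the families Ighv2, Ighv3, Ighv9, Ighv8, Ighv14 and Ighv6 each held between 3.02% and 5.87%. Ighv10, Ighv7 and Ighv4 held 2.31% and 1.89%, 1.46% and 1.35%, and 0.927% and 0.663%. Ighv13, Ighv11 and Ighv15 stayed under 0.5% in both libraries, and no B cell was assigned to Ighv16, which allows a share of up to 0.0568% in ALLO and 0.0585% in SYN. The ALLO over SYN ratio had an interval that excludes 1 for Ighv12 alone, at 16 ALLO and 4 SYN cells, all of the segment Ighv12-3. For the other 14 families in use it ran from 0.776 for Ighv11 to 1.78 for Ighv15. Over this many families, 1 interval that excludes 1 can arise from counting error alone.

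A small number of segments carried much of the repertoire. Ighv1-26 was the assigned segment of 315 ALLO B cells (5.96%, 5.34 to 6.63) and 350 SYN B cells (6.83%, 6.15 to 7.55), and it led in the Fcer2a, Myof or S1pr3 and Cd93 gates of both libraries as well, tied with Ighv1-82 at 8 cells each in the SYN Cd93 gate. Ighv3-6 was next with 230 cells (4.35%) and 214 cells (4.17%). Ighv1-82 held 3.27% and 3.90%, Ighv9-3 held 3.37% and 3.35%, Ighv1-64 held 3.54% and 2.96%, and Ighv1-9 held 3.35% and 3.12%. The intervals of these 4 overlapped within each library. Ighv1-18, Ighv1-81, Ighv1-80 and Ighv8-8 completed the 10 most used by mean share, with 3.07%, 2.54%, 2.38% and 2.31% in ALLO and 2.87%, 2.75%, 2.83% and 2.89% in SYN. Together the 10 took 34.1% of ALLO and 35.7% of SYN B cells. The inverse Simpson index, the number of equally used segments that would give the same concentration, was 46.7 in ALLO and 44.3 in SYN, over 100 segments used in each.

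**Figure D2:**
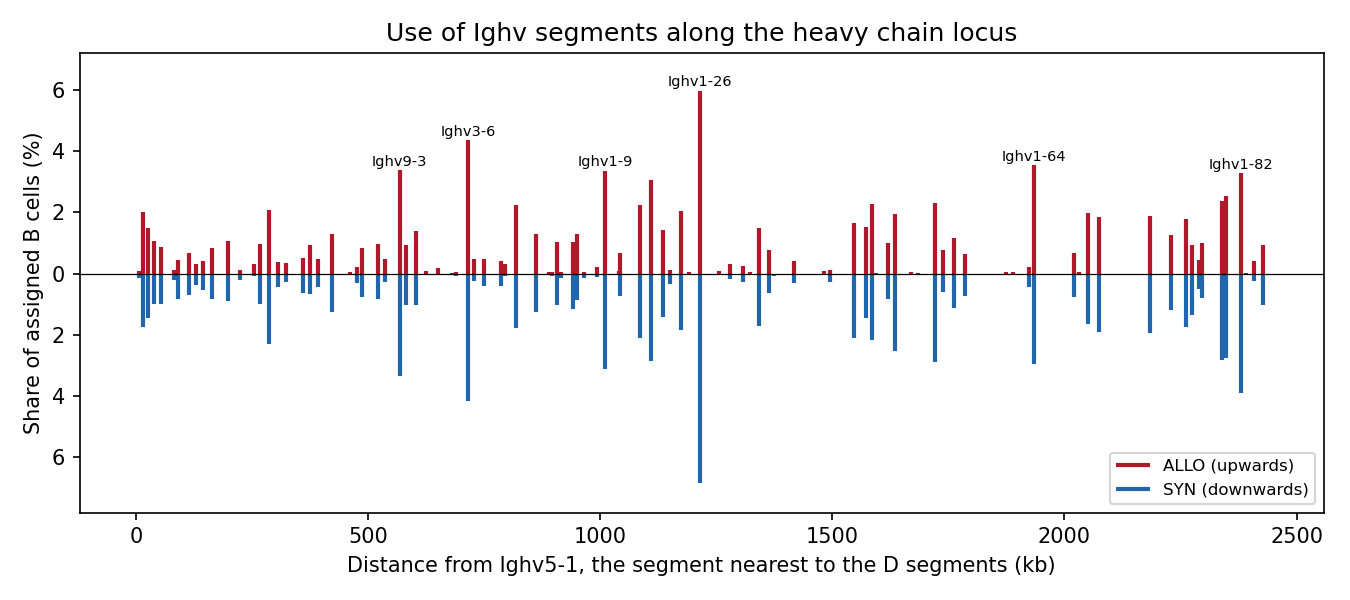
Share of assigned B cells per Ighv segment (vertical axis, %; ALLO upwards in red, SYN downwards in blue) by the distance of the segment from Ighv5-1 in kb (horizontal axis). The 2 libraries mirror each other, Ighv1-26 stands highest at 5.96% and 6.83%, and used segments lie along the whole locus.

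Use was spread over the whole locus. Cut into 4 stretches of 609 kb from the D-proximal end, the locus gave 25.1%, 32.7%, 16.9% and 25.3% of ALLO B cells and 24.5%, 31.5%, 18.0% and 26.1% of SYN B cells. The stretches hold 34, 33, 23 and 23 functional genes. Ighv5-2, a functional gene at the D-proximal end, was used by 5 and 7 B cells only. The stretches were used much alike in the B cell gates described further on, which share cells. The ratio of the Myof or S1pr3 to the Fcer2a share lay between 0.914 and 1.09. That of the Cd93 to the Fcer2a share lay between 0.635 and 1.20, and all intervals included 1.

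Family shares depended on how many UMIs were asked of a segment. Cells assigned to Ighv1 had a median of 6 UMIs of their segment in ALLO and 7 in SYN, against 11 and 14 for Ighv2, 10 and 11 for Ighv6, and 10 and 11 for Ighv9. Ighv14 cells had 5 in both. Ighv1 was accordingly 69.9% of ALLO B cells with 3 or 4 UMIs of the segment, 62.3% of those with 5 to 9, and 44.7% of those with 10 or more. The same shares in SYN were 70.9%, 67.7% and 46.9%. Across segments with at least 20 cells, the median UMIs of a segment and its identity with the closest other segment had a Spearman rho of -0.23 in ALLO (55 segments) and -0.24 in SYN (54 segments), a description over segments of 1 library each. Ighv1 was the lower in ALLO in each of these 3 classes of cells.

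Segment use in ALLO and SYN B cells was compared over the 75 segments with at least 20 assigned cells in both libraries together. The Spearman correlation of the shares was 0.96 across these segments, which are parts of a whole and not independent. The share was at least 1.5-fold higher in ALLO for 6 of the 75 (8%) and at least 1.5-fold lower for 4 (5.33%), and most of these were segments of few cells. The interval excluded 1 for Ighv12-3, Ighv5-15, Ighv1-20 and Ighv5-9, with 2 of them above 1 and 2 below. Over 75 segments, about as many intervals of this kind can exclude 1 by counting error alone. These 4 are therefore described and not taken as differences between the libraries.

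Ighv12-3 was assigned in 16 ALLO cells (0.303%, 0.173 to 0.491) and 4 SYN cells (0.0780%, 0.0213 to 0.200), a ratio of 3.88 (1.25 to 16). Ighv5-15, of the Ighv5 family, had the same cell numbers, 16 and 4. Ighv1-20 was assigned in 6 ALLO and 17 SYN cells, a ratio of 0.343 (0.111 to 0.910); its near copy Ighv1-37, which lies 4 bases away over the exon, was assigned in 3 and 3. Ighv5-9 was assigned in 24 ALLO and 42 SYN cells, a ratio of 0.555 (0.321 to 0.937). That last difference rested on the SYN group of Ighv5-9 with Igkv3-4: 23 of its 25 barcodes were B cells. With the group counted as 1 barcode, 19 SYN cells used Ighv5-9 and the ratio was 1.22 (0.641 to 2.36). The other segments past 1.5-fold were Ighv9-2, Ighv9-4, Ighv1-34 and Ighv1-84 in the higher direction and Ighv8-5 and Ighv1-63 in the lower, all with intervals that include 1.

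**Figure D3:**
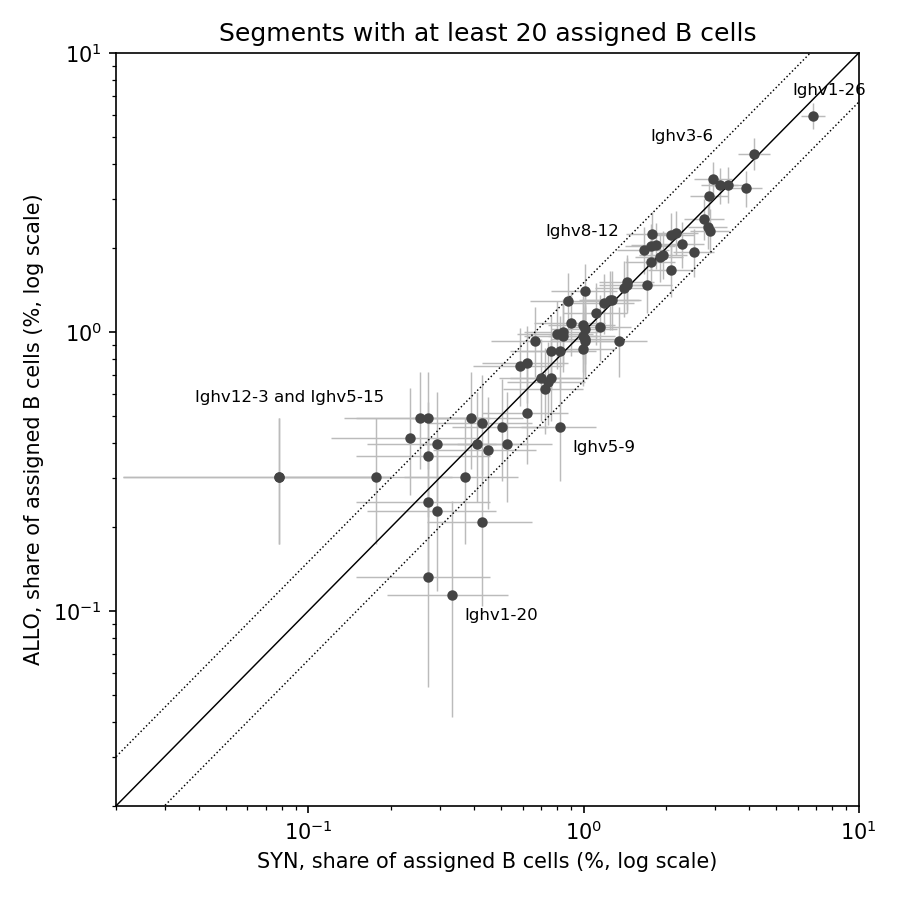
Share of assigned B cells in ALLO (vertical axis, %, log scale) against SYN (horizontal axis, %, log scale) for the 75 segments with at least 20 cells, with exact 95% intervals as grey lines. The solid line marks equal shares and the dotted lines a 1.5-fold difference; Ighv12-3 and Ighv5-15 share the leftmost point, at 0.303% and 0.0780%.

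Measured as UMIs rather than as cells, Ighv transcripts took a smaller part of the B cell RNA in ALLO. They were 0.221% of all B cell UMIs in ALLO (56273 UMIs) and 0.270% in SYN (61725 UMIs). The median B cell held 7 Ighv UMIs in both libraries, with means of 8.10 and 9.09. The 10 B cells with the most Ighv UMIs held 1.39% and 1.47% of them. Without the 1 ALLO and 3 SYN B cells of 100 or more Ighv UMIs the levels were 2211 and 2695 CPM, where CPM is the UMIs of a gene scaled to a fixed total, against 2212 and 2702 CPM with them. Of 12415 genes with at least 20 UMIs over both libraries, 344 were at least 1.5-fold higher in ALLO (2.77%) and 606 at least 1.5-fold lower (4.88%), with a median log2 ratio of -0.07. Of 109 Ighv rows in that comparison, 9 were at least 1.5-fold higher and 27 at least 1.5-fold lower, with a median log2 ratio of -0.27. With the interval also asked to exclude 1, 25 Ighv rows were lower (22.9%) and 8 higher (7.34%), against 3.07% and 1.36% of all genes. The UMIs of an Ighv row come from the few cells that use it and are not independent, so these intervals are too narrow. In sums of this kind, fewer cells that use a segment and fewer molecules per cell cannot be told apart.

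Of the genes that make or read the rearranged heavy chain gene, none of the 15 compared was 1.5-fold apart. Among all 12415 genes, 2.77% were at least 1.5-fold higher in ALLO and 4.88% at least 1.5-fold lower. A count of 0 among 15 is near those shares. A list of 19 such genes was used, covering recombination (Rag1, Rag2, Dntt), the surrogate light chain (Vpreb1, Vpreb3, Igll1), transcription factors of the heavy chain locus (Pou2f1, Pou2f2, Pou2af1, Pax5, Ebf1, Tcf3, Yy1, Ctcf), uracil repair (Ung) and the receptor itself (Ighm, Ighd, Cd79a, Cd79b). Rag1, Rag2, Dntt and Igll1 had too few UMIs to compare. The other 15 had a median log2 ratio of -0.08. Among them Vpreb1, with 12 and 14 UMIs, had an interval of 0.325 to 1.79, which reaches past 1.5-fold both ways. The lowest ratio among genes of over 1000 UMIs was that of Vpreb3, at 220 CPM in ALLO and 299 CPM in SYN (0.736, 0.710 to 0.762). The constant segment Ighm, at 1239 and 1220 CPM, had a ratio of 1.02 (0.999 to 1.03), and Ighd was at 503 and 504 CPM.

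B cell stages were marked by gates of at least 1 UMI of a gene. Among assigned B cells, 3871 ALLO and 3678 SYN cells held Fcer2a, 348 and 326 held Myof or S1pr3, which mark marginal zone B cells, and 112 and 99 held Cd93, which marks transitional B cells. The gates overlapped: Fcer2a was also present in 49.4% and 44.2% of the Myof or S1pr3 cells and in 71.4% and 62.6% of the Cd93 cells. The gates were checked with sums over marker lists, which hold the gating genes. Over 9 marginal zone genes the Myof or S1pr3 gate was at 2205 and 2364 CPM and the Fcer2a gate at 893 and 892. Over 6 transitional genes the Cd93 gate was at 6996 and 6763 CPM and the Fcer2a gate at 5786 and 5556. Over 6 follicular genes the Fcer2a gate was at 3312 and 3331 CPM. The Myof or S1pr3 gate was at 1912 and 1859, and the Cd93 gate at 2708 and 2720. Cr2, Dtx1, Myb and Vpreb3, from those lists, were not used for gating. Cr2 (CD21), which is high on marginal zone B cells, was at 737 and 726 CPM in the Myof or S1pr3 gate against 329 and 311 CPM in the Fcer2a gate, and Dtx1 was at 280 and 334 CPM against 86.0 and 90.7. Myb, a gene of immature B cells, was at 40.1 and 39.0 CPM in the Cd93 gate against 3.55 and 4.77 in the Fcer2a gate. Vpreb3 was at 358 and 446 CPM in the Cd93 gate and 220 and 304 in the Fcer2a gate. Rag1, also of the transitional list, had no UMI in either gate. The Cd93 gate of SYN also held 841 CPM of the myeloid gene Lyz2, against 1.43 in ALLO, and its part in the results of that gate was not tested.

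Family use was much alike across the gates, which share cells and differ in depth. A cell in both gates of a contrast counts on both sides, which draws the ratio towards 1. The intervals treat the counts as separate. Assigned cells had medians of 5146 and 4581.5 UMIs in the Myof or S1pr3 gate, 3297 and 3175.5 in the Fcer2a gate and 3965.5 and 3701 in the Cd93 gate. Their segments had medians of 9 and 10, 7 and 8, and 10 and 13 UMIs. The Ighv1 share varied with the UMIs of the segment, so the gates are not matched for it. Ighv1 took 58.9% (53.5 to 64.1) of ALLO and 59.5% (54.0 to 64.9) of SYN cells in the Myof or S1pr3 gate, 58.5% and 60.6% in the Fcer2a gate, and 56.3% and 58.6% in the Cd93 gate. Of 12 families compared between the Myof or S1pr3 and the Fcer2a gate, 3 were higher in both libraries, 3 lower in both and 6 opposite. Between the Cd93 and the Fcer2a gate, 4 were higher in both, 3 lower in both and 5 opposite. No family and none of 70 segments had an interval excluding 1 on the same side in both libraries, in either contrast. The interval of Ighv1 was the tightest: the Myof or S1pr3 share relative to the Fcer2a share was 1.01 (0.868 to 1.16) in ALLO and 0.982 (0.843 to 1.14) in SYN.

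The gaps that did appear were seen in a single library. Between the Myof or S1pr3 and the Fcer2a gate, 0 ALLO and 2 SYN intervals of 70 segments excluded 1. Of 12 families it was 1 and 0. Between the Cd93 and the Fcer2a gate it was 0 and 1 for segments and 0 and 1 for families. Over this many intervals, so few can exclude 1 by counting error alone. Ighv6 made up 1.44% of Myof or S1pr3 cells and 3.49% of Fcer2a cells in ALLO (5 and 135 cells; ratio 0.412, 0.132 to 0.985), but 4.60% and 2.83% in SYN (15 and 104 cells; ratio 1.63, 0.879 to 2.81). Ighv3 was assigned in 0 of 99 SYN Cd93 cells, which allows a share of up to 3.03%, where its Fcer2a share was 5.17%. In ALLO it was 8.04% of Cd93 cells against 5.71%. At the level of segments, Ighv2-2 was higher in the Myof or S1pr3 gate, with 11 cells against 81 Fcer2a cells in ALLO (1.51, 0.725 to 2.85) and 11 against 58 in SYN (2.14, 1.01 to 4.12). Ighv1-5 was assigned in 3 ALLO and 0 SYN cells of that gate, which allows a SYN share of up to 0.920%, where the Fcer2a shares were 1.14% and 1.36%.

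**Figure D4:**
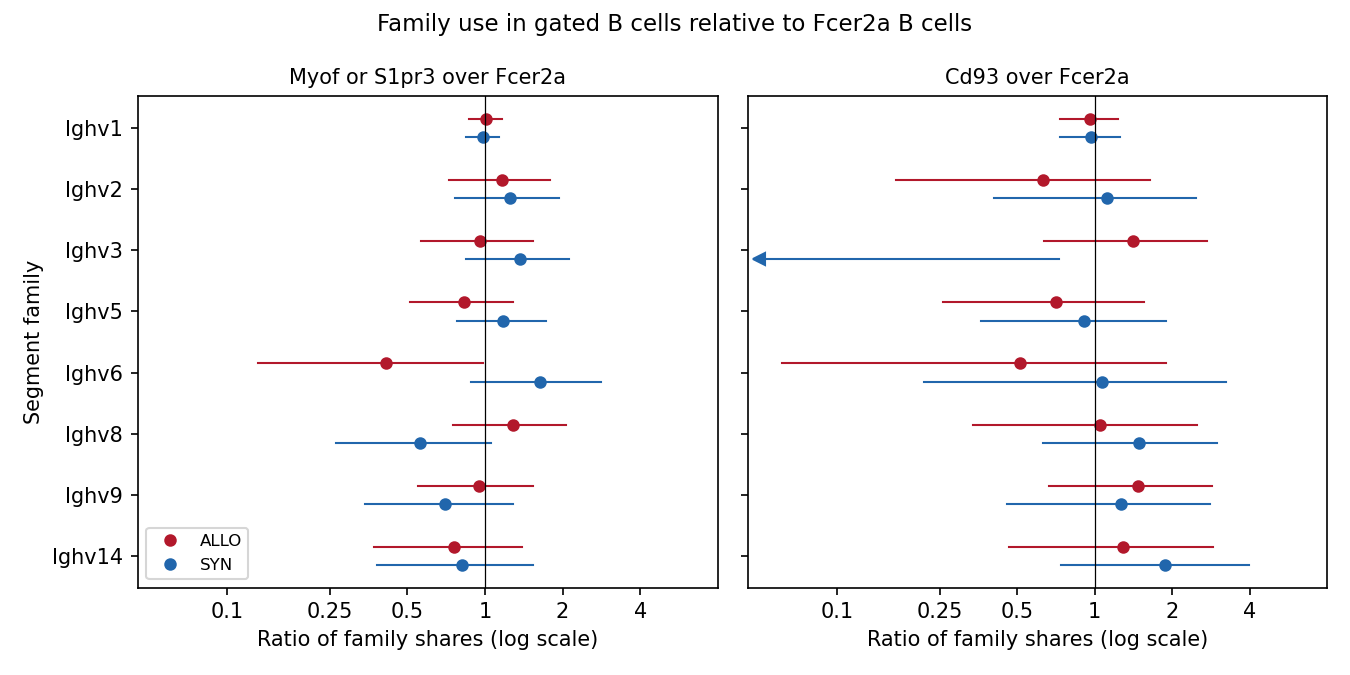
Ratio of a family's share in Myof or S1pr3 B cells (left) and Cd93 B cells (right) to its share in Fcer2a B cells (horizontal axis, log scale) for the 8 families with the most cells, in ALLO (red) and SYN (blue), with exact 95% intervals. The Ighv1 ratios sit at 1.01 and 0.982 on the left, and the arrow marks Ighv3 in SYN Cd93 cells, with 0 of 99 cells.

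Cells with the phosphatidylcholine-associated segments mostly had no Fcer2a UMI. Ighv11-2 was assigned in 12 ALLO and 15 SYN B cells, and Fcer2a was present in 3 of 12 (25%, 5.49 to 57.2) and 3 of 15 (20%, 4.33 to 48.1). Among all assigned B cells it was present in 73.3% and 71.7%. The Ighv11-2 cells were deeper, with medians of 5896 and 4771 UMIs against 3284.5 and 3139. At 1000 UMIs each, Fcer2a was present in 1 of 12 and 2 of 15, against 39.8% and 40.4%. For Ighv12-3 it was present in 4 of 16 ALLO and 0 of 4 SYN cells.

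Genes of B1 cells were high in the Ighv11-2 cells. Of a list of 9 such genes (Bhlhe41, Zbtb32, Cd5, Spn, Plac8, Anxa2, Ctla4, Itgam and Cd9), 6 in ALLO and 5 in SYN had an interval wholly above the level of all assigned B cells and none had it below, while 2 in ALLO and 1 in SYN were at 0. The interval lay above for 2.78% and 3.28% of the 12415 genes compared. In Ighv12-3 cells the number was 6 of 9 in ALLO, with 1 at 0, and 1 of 9 in SYN, where 5 were at 0 over the 4 cells, against 5.02% and 1.65% of all genes. Cd5 was at 78.5 CPM (25.5 to 183) in ALLO and 59.2 CPM (16.1 to 152) in SYN, against 2.68 and 3.40 CPM in all assigned B cells. Bhlhe41, a transcription factor of B1a cells, was at 62.8 CPM (17.1 to 161) and 118 CPM (51.2 to 233), against 8.74 and 7.85. Plac8 was at 1036 and 1822 CPM against 479 and 436, and the tetraspanin Cd9 was at 94.2 and 148 CPM against 15.2 and 22.0. In ALLO Ighv12-3 cells, Zbtb32 was at 53.7 CPM (19.7 to 117) against 3.18, and Anxa2 at 98.4 CPM (49.1 to 176) against 11.4. The Ighv11-2 and Ighv12-3 levels rest on 4 to 123 UMIs each. A raised sum of the list was not particular to these cells, but in all B cells Plac8 made up most of that sum. Summed over the 9 genes, the Myof or S1pr3 gate was at 1015 CPM in ALLO and 1016 CPM in SYN. The Cd93 gate was at 831 and 802 CPM, the Fcer2a gate at 423 and 367 CPM and all B cells at 514 and 479 CPM. Plac8 alone was at 479 and 436 CPM in all assigned B cells and at 1036 and 1822 CPM in Ighv11-2 cells. These sums therefore say little of Cd5, Bhlhe41 and the other genes of the list in the gates.

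Ighv11-2 also came with a recurrent light chain. Igkv14-126 was the light segment in 6 of 8 ALLO and 9 of 12 SYN Ighv11-2 cells with an assigned light segment (75% in each), against 29 of 4557 (0.636%) and 32 of 4480 (0.714%) over all assigned B cells. All 11 Ighv11-2 cells with an assigned constant segment used Ighm, in each library, where Ighm was used by 89.5% and 88.6% of all assigned B cells with a constant segment. Ighv12-3 was paired with Igkv4-91 in 2 of 11 ALLO and 0 of 4 SYN cells. Over all assigned B cells, Igkv4-91 was the light segment in 36 of 4557 and 31 of 4480. Ighv7-1 was paired with Igkv7-33 in 0 of 16 and 0 of 13 cells. No assigned B cell of either library had Igkv7-33 as its light segment, so these counts say nothing particular of Ighv7-1. In the Ighv4 family, singled out after its values were seen, Fcer2a was present in 24 of 49 ALLO cells (49.0%, 34.4 to 63.7) and 19 of 34 SYN cells (55.9%, 37.9 to 72.8).

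Plasma cells, taken as barcodes with at least 3 UMIs of Jchain and 1 of Xbp1, numbered 32 in ALLO and 40 in SYN, and 32 and 37 were assigned. Sdc1 and Prdm1, plasma cell genes not used for the gate, were present in a minority of them. Sdc1 was in 7 ALLO and 10 SYN barcodes, and Prdm1 in 7 and 12. In the Ighv8-12 group they were in 3 and 0 of 20 barcodes, and in the Ighv3-6 group in 1 and 5 of 30. Summed over 6 T cell genes, the plasma cell gate was at 77.4 CPM in ALLO and 260 CPM in SYN. All B cells, gated on no Cd3 UMI, were at 3.03 and 7.31 CPM. The assigned segment held a median of 199 UMIs in ALLO and 117 in SYN with all barcodes, and 301 and 1087.5 with each group of like barcodes counted once. With all barcodes counted, a single segment led each library. In ALLO, Ighv8-12 was assigned in 15 of 32 (46.9%, 29.1 to 65.3), of which 14 carried Igkv12-44 and 14 Ighm. In SYN, Ighv3-6 was assigned in 16 of 37 (43.2%, 27.1 to 60.5), of which all 16 carried Igkv10-96 and 15 Igha. In B cells these segments were used alike in both libraries, Ighv8-12 by 1.85% and 1.89% and Ighv3-6 by 4.35% and 4.17%.

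Both leads came from the groups of like barcodes. With each group counted once, 2 of 19 ALLO plasma cells used Ighv8-12 (10.5%) and 1 of 22 SYN plasma cells used Ighv3-6 (4.55%). The most used segments were then Ighv1-53, with 3 ALLO plasma cells, and Ighv1-39, Ighv1-50, Ighv1-55 and Ighv5-17, with 2 SYN plasma cells each. The inverse Simpson index was 4.06 with all barcodes and 11.6 with each group counted once in ALLO, and 4.80 and 16.1 in SYN. Ighv1 made up 10 of 19 ALLO (52.6%, 28.9 to 75.6) and 16 of 22 SYN plasma cells (72.7%, 49.8 to 89.3). Over all families, Igha was the constant segment in 10 of the 19 ALLO and 11 of the 22 SYN plasma cells, and Ighm in 7 and 9. With all barcodes, 4 segments were used in plasma cells of both libraries (Ighv1-22, Ighv1-53, Ighv1-64 and Ighv3-6), 28.6% of the 14 ALLO segments and 22.2% of the 18 SYN segments. A plasma cell of ALLO used Ighv11-2 with Igkv14-126 and Ighm, with 1015 UMIs of the segment.

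**Figure D5:**
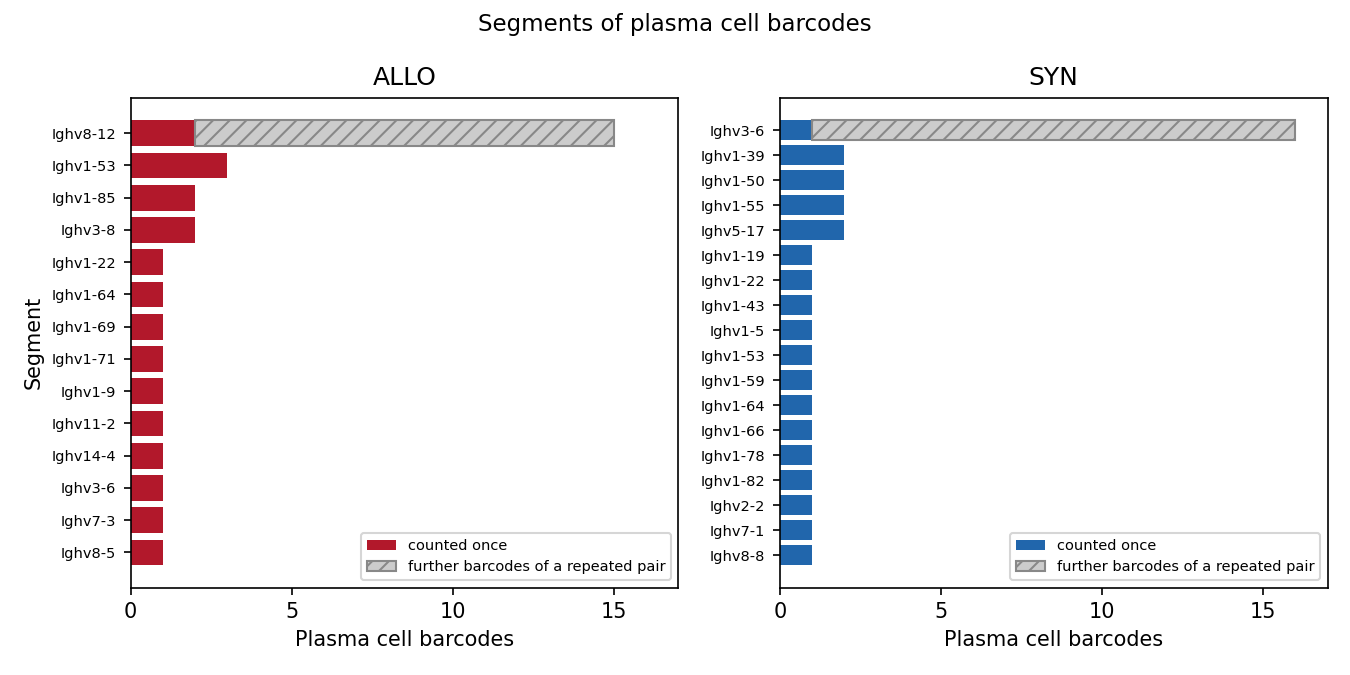
Plasma cell barcodes (horizontal axis, number) per assigned segment in ALLO (left, 32 barcodes) and SYN (right, 37 barcodes). Coloured bars count each group of like barcodes once, and hatched bars are the further barcodes of the groups, which take Ighv8-12 from 2 to 15 and Ighv3-6 from 1 to 16.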

How the data were processed

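UMI counts were taken as the authors deposited them, without normalization. Cell Ranger 6.0.2 made them, per the file headers, on mm10, per the submitters' processing notes, which also name FastQC. The annotation release is not given in the sources used here. Kept barcodes held 38542406 UMIs in ALLO and 40841478 in SYN. Shares have Clopper-Pearson intervals and ratios exact conditional Poisson intervals (scipy 1.17.1, numpy 2.4.6, pandas 2.3.3, python 3.11.15). Free RNA was not corrected for, and no doublet caller was run. Segments named were the 10 most used, those whose ALLO over SYN interval excluded 1 (up to 6 a side), the 5 most used in plasma cells, and Ighv11-2, Ighv12-3, Ighv7-1 and Ighv5-2. Others were named after their values were seen. A gene of the heavy chain pathway list is not reported here and was left out of its counts. Members and lists were chosen with earlier results of these data known. Alternatives changed the UMI minimum, assignment limits, gates, thinning and cell filters. Interval and assignment steps were tested on simulated data.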

Additional observations from a re-analysis of the deposited data

How the results depend on the processing

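No paired analysis was possible because each group held 1 library. Of 480 recomputed values, 450 stayed within the reported interval, within 1.5 times the reported count or near the reported median log2 ratio. Among the main results 112 values stayed and 16 moved. Among the ratios of single segments and of families other than Ighv1, often with wide intervals, 338 stayed, 13 moved and 1 reversed. With at least 2000 UMIs per barcode, 2 segments were 1.5-fold lower in ALLO, and Ighv3-6 was 9.09% of SYN plasma cells. With 5 UMIs asked of a segment, 3 segments were 1.5-fold higher, and Ighv1 held 54.7% of ALLO and 57.4% of SYN B cells. Thinned to 1000 UMIs, Ighv1 held 49.2% and 52.0%, and the log2 ratio of its Myof or S1pr3 to its Fcer2a share in ALLO was 0.26. Gates at 2 UMIs gave -0.50 for its Cd93 to Fcer2a share in ALLO. Without cells with another segment of 3 UMIs, Ighv8-12 held 68.4% of ALLO plasma cells. With 50 cells asked of a segment, 0 were 1.5-fold higher and 1 lower. With 10 cells, 7 were lower. With no minimum of UMIs, 21 Ighv rows were 1.5-fold higher in ALLO. With each group of like barcodes counted once, an alternative chosen after seeing the data, Ighv8-12 and Ighv3-6 held 10.5% and 4.55% of plasma cells, and the log2 ratio of Ighv5-9 in B cells turned from -0.85 to 0.29. Fewer segments or barcodes enter most of these counts by construction, and for the others the cause was not tested. Depth limits segments under 20 cells, and the Cd93 and plasma gates.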

Other observations

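The SYN group of barcodes with Ighv5-9 and Igkv3-4 held Fcer2a in 6 of 25, Bhlhe41 in 5 of 25 and Ighm as constant segment in 10 of 25, with no constant segment assigned in the other 15. Its segment counts lay between 4 and 14 UMIs, in the range of ordinary B cells. Over all SYN Ighv5-9 B cells, Zbtb32 was at 85.4 CPM and Cd9 at 147 CPM, against 0 and 33.6 CPM in ALLO Ighv5-9 cells. Of these 42 SYN cells 23 belonged to the group, and with the group counted once the 19 left had 0 and 46.3 CPM.

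In ALLO T cells, 64 of the 185 Ighv UMIs came from Ighv1-9, and in SYN T cells 42 of 179 came from Ighv1-66. Barcodes with at least 3 Jchain UMIs and no Xbp1 UMI, which belong to neither the B cell nor the plasma cell gate, numbered 25 in ALLO and 30 in SYN. Of these, 6 and 14 were further barcodes of the groups of like barcodes.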
